A study of Mus musculus with 6 samples.

Results

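Resident fibroblast identity genes are described here in mouse hearts after coronary ligation: 10 genes given by symbol, out of 17524 genes in the deposited table. They are Pdgfra, Tcf21, Scara5, Lamc3, Dpt, Pi16, Gsn, Dpep1, Cd248 and Col15a1. Their values were obtained by summing the estimated read counts of all transcript models that carry the same Entrez gene number, and the rule uses no measured value. The genes themselves were chosen with earlier results of these data known. The 6 RNA sequencing libraries fall into 2 groups of 3. The control libraries, 35, 36 and 37, are labelled wild type. The TFEB overexpression libraries, 34, 41 and 43, are labelled with that genotype, and the series describes the line as R26-LSL-TFEB [+/+] with Acta2-cre. In such mice a TFEB cassette at the Rosa26 locus is switched on by Cre in cells that have used the promoter of Acta2, which encodes the actin of smooth muscle and myofibroblasts. Resident fibroblasts express little Acta2 until they are activated, so this driver limits the line as a model of TFEB in the unactivated cell. Every animal of both groups had the anterior descending branch of the left coronary artery ligated. The sources used here do not give the age of the mice, the time after ligation, the part of the heart taken, or whether the controls carried Cre or the cassette alone.

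Resident cardiac fibroblasts lie between the muscle cells and around the vessels. They arise largely from the epicardium, depend on the transcription factor Tcf21 for their formation, and carry the PDGF receptor alpha at their surface throughout life. After infarction they proliferate and pass into an activated, matrix-producing state marked by Postn and, in myofibroblasts, Acta2, and the genes of the resting state are generally known to recede as they do so. TFEB itself is a regulator of lysosome and autophagy genes.

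The labels describe the material both as heart tissue and as primary fibroblasts. The 16 cardiomyocyte markers summed to between 87289 and 143831 CPM (each count scaled to the effective size of its library) in the 6 libraries, so the profiles are those of heart tissue with its muscle. Myh6, the main cardiac myosin, was lowest in TFEB 34 (23129 CPM) and highest in TFEB 43 (49163 CPM). In such bulk samples, a change in the number of fibroblasts, in RNA per fibroblast, or in RNA of the same genes from other cells cannot be told apart. Library totals ran from 12942480 to 14969287 estimated counts. Tfeb stood at 34.4, 33.8 and 41.4 CPM in controls 35, 36 and 37, against 45.4, 45.3 and 39.4 CPM in TFEB 34, 41 and 43, and the groups overlapped (log2 fold change 0.25, SE 0.12, edgeR adjusted p = 1.00). The labels name no litter, day or other batch, and the libraries of a group differed by far more than sampling noise.

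All 10 genes were detected in all 6 libraries and passed the filter on low counts. On the TPM scale, which is also corrected for transcript length and lets genes be set side by side, Gsn stood first with a median of 1112 TPM over the 6 libraries (range 834.5 to 1817). Gsn encodes gelsolin, a calcium-regulated protein that severs and caps actin filaments and is also secreted. It was followed by Dpt at 249 TPM, Pi16 at 117 TPM, Col15a1 at 92.4 TPM and Dpep1 at 53.9 TPM. Tcf21 (27.4 TPM), Pdgfra (25.9 TPM), Cd248 (19.1 TPM) and Scara5 (16.5 TPM) lay close together. Lamc3 came last, with 0.34 TPM and a range of 0.25 to 1.51 TPM.

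Most neighbours in this order could not be separated. Only the first step, Gsn over Dpt, and the last, Scara5 over Lamc3, had ranges that did not overlap. Dpt exceeded Pi16, and Pdgfra exceeded Cd248, in 6 of 6 libraries although their ranges overlapped. Tcf21 exceeded Pdgfra in 3 libraries, and Cd248 exceeded Scara5 in 3, so neither pair has a fixed order. For scale, Dcn, which encodes the proteoglycan decorin of nearly all fibroblasts and was picked for this comparison after its values were seen, ran from 688.5 to 1422 TPM.

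**Figure D1:**
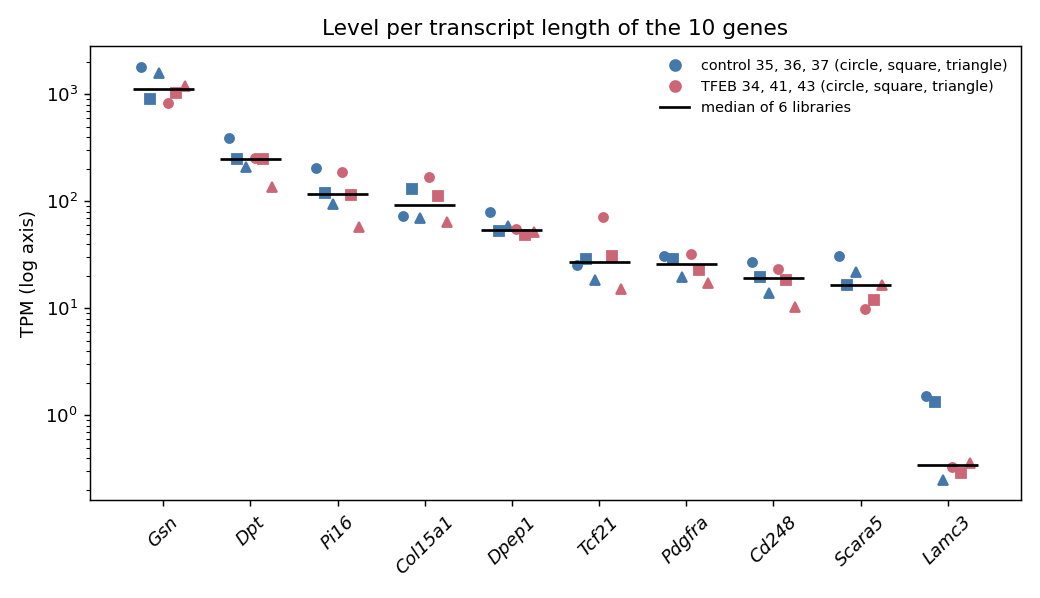
Level of each gene in TPM, on a log axis, in the 6 libraries, ordered by the median (black line); each point is 1 library, blue for control and red for TFEB overexpression. Gsn lies above and Lamc3 below all the others in every library, while Tcf21, Pdgfra, Cd248 and Scara5 overlap.

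The question of the comparison is whether the resident fibroblast program differs between hearts of TFEB-overexpressing and control mice after ligation. None of the 10 genes passed the test. Over all 13565 genes tested with edgeR's quasi-likelihood test, 0.0% were called at an adjusted p under 0.05, and 164 genes, 1.21%, had an unadjusted p under 0.05. The other count test, DESeq2, called 1 of 17469 genes, 0.00572%, and none of the 10. An unadjusted edgeR p under 0.05 was found for 2 of the 10, Scara5 and Lamc3, against 1.21% of all genes. Both were lower in TFEB overexpression, as were 0.833% of all genes at that p. The 10 genes were chosen with earlier results of these data known, so these shares are no test. In none of the 10 were the libraries of the groups apart, against 4.75% of all genes.

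The fitted value was lower in TFEB overexpression for 8 of the 10 genes and higher for Tcf21 and Col15a1, where 49.0% of all genes had a lower value. The median log2 fold change of the 10 was -0.30, beside 0.003 over all genes tested. Control 35 weighs on this count. It was the highest of the 6 libraries for 8 of the 10 genes, against 16.6% of all genes, and TFEB 43 was the lowest for 6 of the 10, against 25.5% of all genes. Without control 35 the count of lower values was 6 of 10 and the median -0.075, and without TFEB 43 the count was also 6 of 10. Without TFEB 34 it was 9 of 10.

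The spread within groups was wide for these genes. The SD of log2 CPM within groups was above 0.22, its median over all genes tested, for 10 of 10. The difference between groups was larger than that SD for 4 of them, Scara5, Lamc3, Dpt and Dpep1, and smaller for the other 6.

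**Figure D2:**
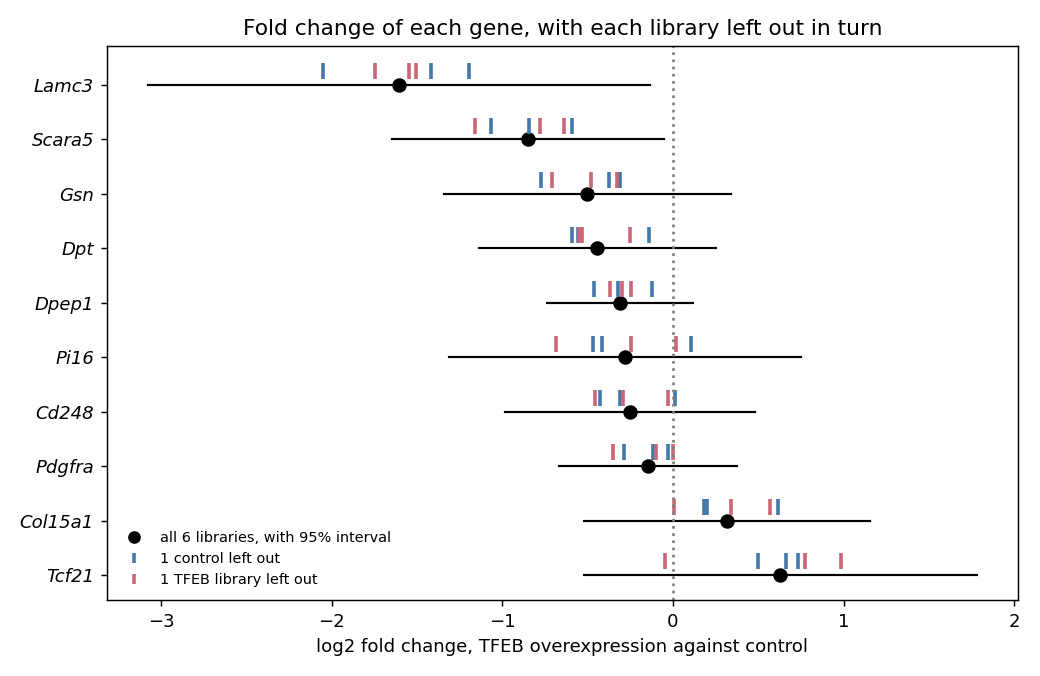
Log2 fold change of each gene, TFEB overexpression against control, from the edgeR fit on all genes, with its 95% interval; short ticks give the same value with 1 control (blue) or 1 TFEB library (red) left out. The intervals of Scara5 and Lamc3 end below 0 before adjustment, and none of the 10 passed the adjusted threshold.

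The regulators of the group are a receptor and a transcription factor. Pdgfra (chromosome 5, 75151322 to 75198206, build GRCm38) encodes the receptor tyrosine kinase through which PDGF ligands drive growth of mesenchymal cells. It stood at 117, 105 and 80.4 CPM in controls 35, 36 and 37, against 115, 86.8 and 71.1 CPM in TFEB 34, 41 and 43. The groups cover nearly the same range, with 1 high and 1 low library in each. The TFEB to control ratio was 0.902 (95% interval 0.629 to 1.29, edgeR adjusted p = 1.00). Leaving out TFEB 43 brought the log2 fold change from -0.15 to 0.0006.

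Tcf21 (chromosome 10, 22817263 to 22820143) encodes the basic helix-loop-helix factor of the epicardial and fibroblast lineage. Its level was 15.3, 16.6 and 11.8 CPM in the controls and 39.2, 18.5 and 9.75 CPM in TFEB 34, 41 and 43. TFEB 34 was well above every other library, while TFEB 43 was below every control. The ratio was 1.55 (95% interval 0.697 to 3.43, edgeR adjusted p = 1.00). It rests on 1 library: without TFEB 34 the log2 fold change went from 0.63 to -0.045.

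Of the surface proteins, Cd248 (chromosome 19, 5068078 to 5070640) encodes endosialin, a receptor for matrix proteins on fibroblasts and pericytes. It stood at 37.8, 26.1 and 20.9 CPM in the controls and at 29.9, 25.6 and 15.6 CPM in TFEB 34, 41 and 43. The groups overlapped, with a ratio of 0.839 (95% interval 0.505 to 1.39, edgeR adjusted p = 1.00). Without control 35 its log2 fold change went from -0.25 to 0.013.

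Scara5 (chromosome 14, 65666403 to 65764826) encodes a scavenger receptor that binds ferritin. It stood at 65.7, 33.3 and 49.8 CPM in the controls and at 19.1, 25.4 and 38.3 CPM in TFEB 34, 41 and 43. The lowest control, 36, lay below the highest TFEB library, 43, and the other 2 controls lay above all TFEB libraries. The ratio was 0.555 (95% interval 0.320 to 0.963), with an unadjusted p of 0.0397 and an edgeR adjusted p of 1.00. With each library left out in turn the log2 fold change, -0.85 over all libraries, ran from -1.16 to -0.59 and stayed on the same side of 0.

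Dpep1 (chromosome 8, 123186235 to 123201812) encodes a membrane dipeptidase that cleaves cysteinyl-glycine and leukotriene D. It stood at 95.4, 59.7 and 75.5 CPM in the controls and at 61.1, 58.0 and 67.1 CPM in TFEB 34, 41 and 43. The TFEB libraries lay close together, with an SD of 4.63 CPM around a mean of 62.1 (n = 3), and control 36 lay among them. The ratio was 0.807 (95% interval 0.601 to 1.08, edgeR adjusted p = 1.00), and the log2 fold change of -0.31 ran from -0.46 to -0.12 with each library left out, the latter without control 35.

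Among the secreted proteins, Dpt (chromosome 1, 164796663 to 164824274) encodes dermatopontin, a small matrix protein that binds decorin and collagen. It stood at 345, 209 and 196 CPM in the controls and at 206, 215 and 131 CPM in TFEB 34, 41 and 43. Control 35 was high and TFEB 43 low, and the other 4 libraries lay between 196 and 215 CPM. The ratio was 0.736 (95% interval 0.455 to 1.19, edgeR adjusted p = 1.00). Without control 35 the log2 fold change was -0.14 in place of -0.44.

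Pi16 (chromosome 17, 29318796 to 29328903) encodes peptidase inhibitor 16, a marker of the adventitial fibroblasts that many organs share. It stood at 243, 133 and 120 CPM in the controls and at 203, 133 and 72.3 CPM in TFEB 34, 41 and 43. Each group held 1 high, 1 middle and 1 lower library, and the middle values were the same to within 1 CPM. The ratio was 0.822 (95% interval 0.402 to 1.68, edgeR adjusted p = 1.00). The log2 fold change of -0.28 went to 0.10 without control 35 and to 0.021 without TFEB 43.

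Gsn (chromosome 2, 35256359 to 35307902) was the gene with most reads among the 10. It stood at 2642, 1248 and 2478 CPM in the controls and at 1117, 1483 and 1900 CPM in TFEB 34, 41 and 43. Control 36 lay with the low TFEB libraries, so the groups overlapped. The ratio was 0.707 (95% interval 0.394 to 1.27, edgeR adjusted p = 1.00), and the log2 fold change of -0.50 ran from -0.77 to -0.31 with each library left out.

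The last pair belongs to basement membranes. Lamc3 (chromosome 2, 31887281 to 31949083) encodes the laminin gamma 3 chain. It rests on few reads, 17 to 112 estimated counts a library. Its level was 7.52, 6.25 and 1.32 CPM in the controls and 1.53, 1.46 and 1.98 CPM in TFEB 34, 41 and 43. Controls 35 and 36 stood above all TFEB libraries, and control 37 below all of them. The ratio was 0.329 (95% interval 0.119 to 0.913), with an unadjusted p of 0.0369 and an edgeR adjusted p of 1.00. With each library left out the log2 fold change of -1.60 ran from -2.05 to -1.19.

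Col15a1 (chromosome 4, 47207655 to 47313167) encodes collagen XV, a proteoglycan at the border between basement membrane and matrix, and marks a second fibroblast state found in many organs. It stood at 222, 382 and 229 CPM in the controls and at 481, 343 and 214 CPM in TFEB 34, 41 and 43. TFEB 34 was highest and TFEB 43 lowest, with the controls between them. The ratio was 1.25 (95% interval 0.698 to 2.22, edgeR adjusted p = 1.00). Without TFEB 34 the log2 fold change was 0.0049 in place of 0.32.

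**Figure D3:**
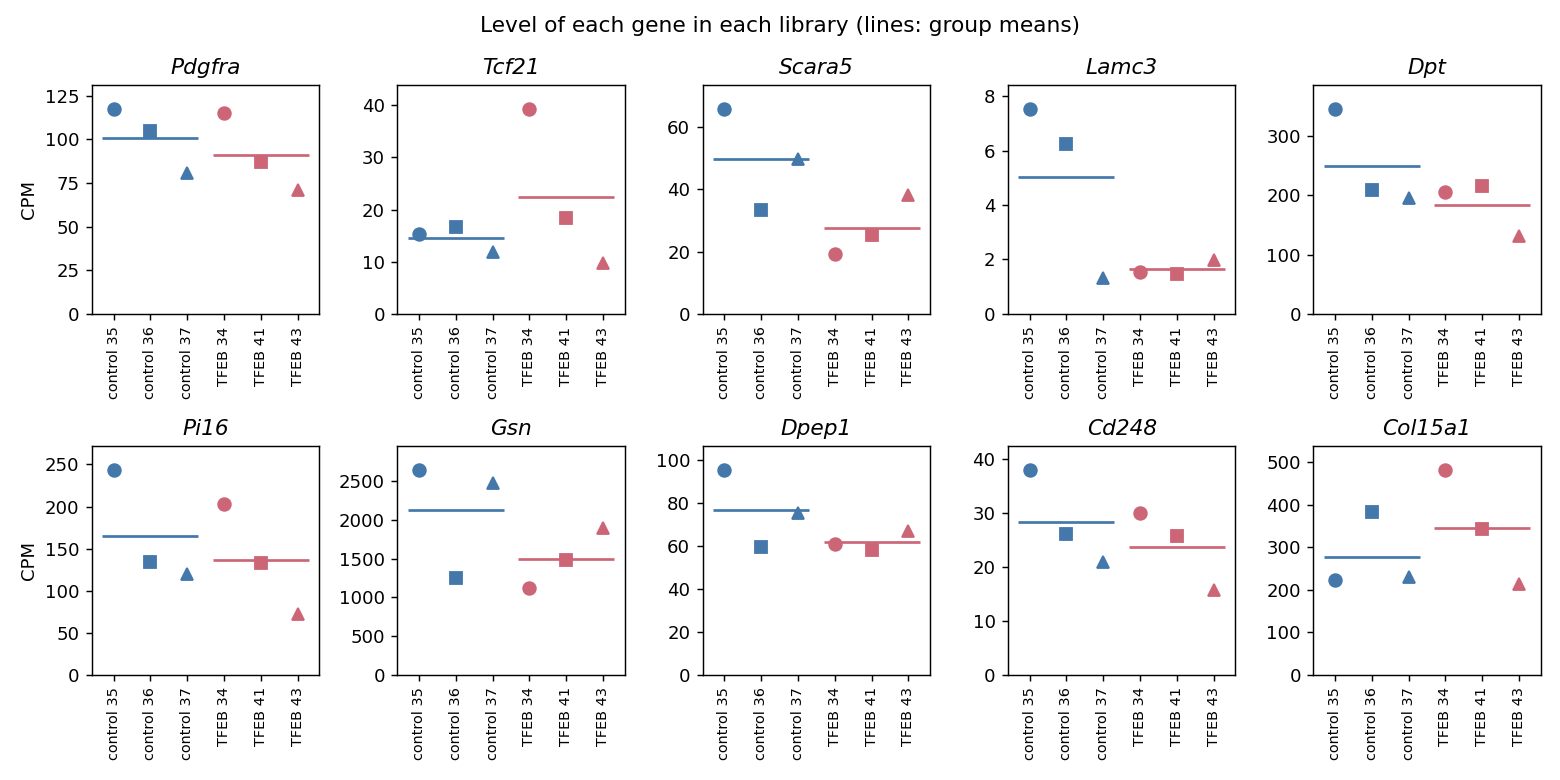
CPM of each of the 10 genes in the 6 libraries, controls in blue and TFEB overexpression in red, with a line at each group's mean; every panel has its own axis from 0. In 8 panels control 35 is the highest point, and in none do the groups separate.

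The 10 genes did not vary as 1 block over the 6 libraries. Likeness was measured as the root mean square distance between log2 CPM profiles, each centred on its own mean, so that 0 is an identical profile; it describes these libraries and was given no test. Pdgfra, Cd248 and Pi16 had the same order of libraries: control 35, TFEB 34, control 36, TFEB 41, control 37 and TFEB 43, from high to low. This order is not particular to them, as Slc2a10 and Tcaf1, outside the set, had it too. The share of all genes with it was not counted. Dpt lay close to Pdgfra, Cd248 and Pi16, with Cd248 at a distance of 0.14. Pdgfra and Cd248 were 0.18 apart, and Pi16 and Cd248 0.19 apart.

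Scara5, Gsn and Dpep1 formed another group, with control 35, control 37 and TFEB 43 as their highest libraries in that order. Scara5 and Gsn were 0.24 apart, and Dpep1 and Gsn 0.28 apart. In these genes TFEB 43 was the highest of its group, where it was the lowest of all libraries for Pdgfra, Cd248, Pi16 and Dpt. Tcf21 and Col15a1 were each other's nearest, at 0.32, both highest in TFEB 34. Lamc3 stood apart from all, its nearest being Dpt at 0.81. The most distant pairs of the 45 were Tcf21 with Lamc3 (1.23) and Tcf21 with Scara5 (1.13).

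Among the 11123 other genes that averaged 5 CPM or more, each of the 10 had a nearer neighbour than any in its own set. The distance was 0.045 from Pdgfra to Sorbs3, which encodes the adhesion protein vinexin. It was 0.048 from Col15a1 to Phldb2, 0.050 from Dpep1 to Zranb3, 0.081 from Gsn to Adam11, and 0.087 from Tcf21 to Laptm5, a lysosomal membrane protein of blood cells. Pi16 was nearest to Slc2a10 (0.088), a glucose transporter family member, Cd248 to Tcaf1 (0.091) and Dpt to Gem (0.13). Scara5 lay at 0.16 from Tppp, and Lamc3 at 0.21 from Pkhd1l1. With 6 points a profile, close neighbours are easy to find among so many genes.

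**Figure D4:**
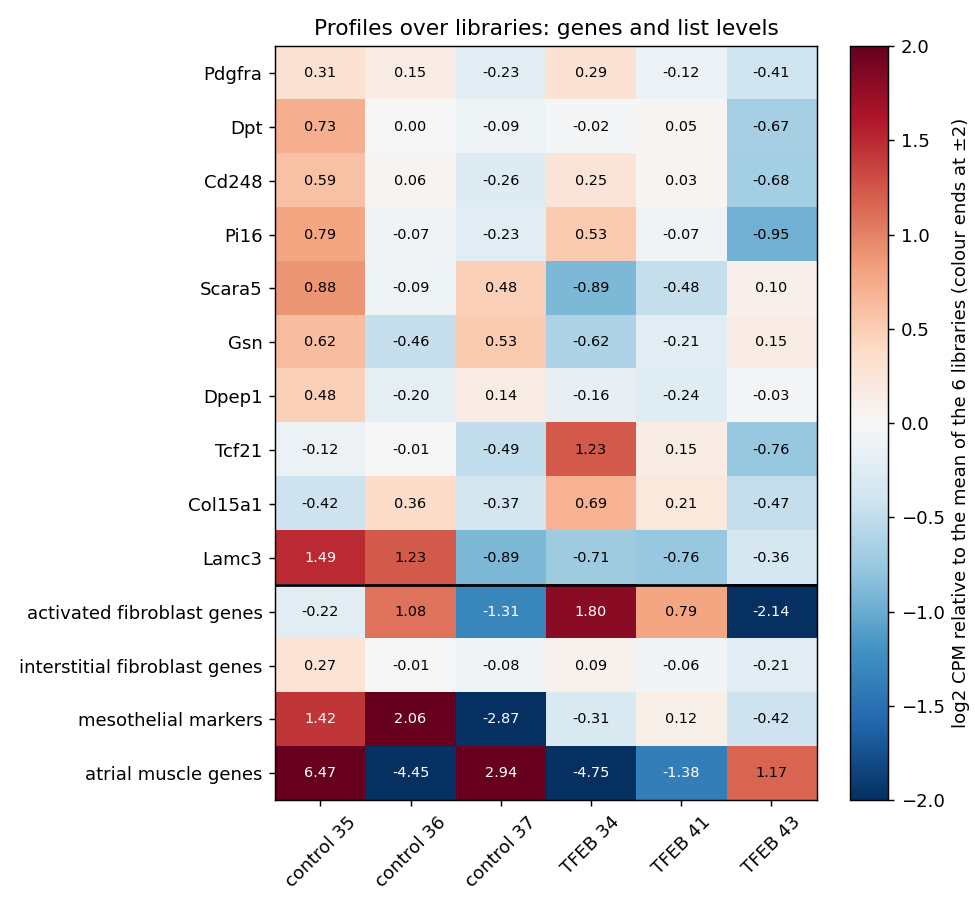
Log2 CPM of each gene relative to its mean over the 6 libraries, with the levels of 4 gene lists below the line; red is above and blue below the mean, and the colour scale ends at 2 in each direction. The upper rows fall into the groups named in the text, and the atrial level runs from -4.75 in TFEB 34 to 6.47 in control 35.

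Genes of other cells varied along with some of these profiles. After the values were seen, 3 genes of atrial muscle were picked: Myl7 and Myl4, the atrial myosin light chains, and Sln, the atrial regulator of the calcium pump. Their summed level was 4091, 3.37 and 364 CPM in controls 35, 36 and 37 and 3.50, 20.6 and 105 CPM in TFEB 34, 41 and 43. Taken as the mean log2 CPM of the 3 genes relative to the 6-library mean, the atrial level was 6.47, -4.45 and 2.94 in the controls and -4.75, -1.38 and 1.17 in the TFEB libraries; control 36 and TFEB 34, the lowest on both scales, change places between this level and the sum. Gsn had the order of the mean log2 level over the 6 libraries, as had 0.619% of all genes tested. That share is no test, because the 3 atrial genes were picked from these same values. Few reads set the order of control 36 and TFEB 34. There Myl7 had 6 and 2 counts and Sln 0 and 0, and Myl4 was higher in TFEB 34 than in control 36. Kcnj5, a potassium channel subunit prominent in atrial muscle, was 1 of the 84 tested genes with the order of the mean log2 level. It was also picked after its values were seen, so its match is only a description. It stood at 196, 80.8 and 163 CPM in the controls and 65.3, 106 and 139 CPM in TFEB 34, 41 and 43.

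With the atrial level as a covariate, added after the data were seen, the log2 fold change of Gsn was -0.099 in place of -0.50. That of Scara5 was -0.50 in place of -0.85, that of Dpep1 -0.11 in place of -0.31, and that of Tcf21 0.22 in place of 0.63. Col15a1 went from 0.32 to -0.033. Pdgfra went the other way, from -0.15 to -0.23. Dpt was at -0.33 in place of -0.44. Pi16 was at -0.26 in place of -0.28, Cd248 stayed at -0.25, and Lamc3 was at -1.58 in place of -1.60. The median of the 10 was -0.24. The atrial genes were picked from these same values, and Gsn shared the order of their level. Fits with this level, here and for other genes below, are therefore no test. With the cardiomyocyte level as a covariate, the log2 fold change of Gsn was -0.48 and the median of the 10 was -0.29.

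Lamc3 was high in the libraries that were high in markers of mesothelium, the outer lining of the heart. The 10 mesothelial markers summed to 162, 267 and 13.4 CPM in controls 35, 36 and 37, against 61.2, 57.9 and 47.7 CPM in TFEB 34, 41 and 43, and all 10 had a lower fitted value in TFEB overexpression, with 0 called. The defining markers were low but present in control 37, at 0.62 CPM for Upk3b and 0.39 CPM for Msln, against 63.1 and 74.8 CPM in control 36. With the mesothelial level as a covariate, added after the data were seen, the log2 fold change of Lamc3 was -1.08 in place of -1.60. Pkhd1l1, its nearest gene by profile, stood at 38.9, 47.5 and 8.01 CPM in the controls and 9.73, 11.3 and 11.1 CPM in TFEB 34, 41 and 43. Of the 8 adipocyte markers 5 were tested, and all 5 had a lower value in the TFEB group, their median log2 fold change being -4.15, with 0 called. An unadjusted p under 0.05 was found for 4 of the 5, against 1.21% of all genes, and 4 did not overlap between the groups, against 4.75%. Adipoq, the adipocyte hormone adiponectin, stood at 11.1, 29.5 and 2.1 CPM in the controls and at 0.0, 1.61 and 0.83 CPM in TFEB 34, 41 and 43, while the 8 markers summed to 430, 544 and 341 CPM in the controls and 257, 274 and 330 CPM in the TFEB libraries. The part of the adipocyte markers in the values of the 10 genes was not tested.

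**Figure D5:**
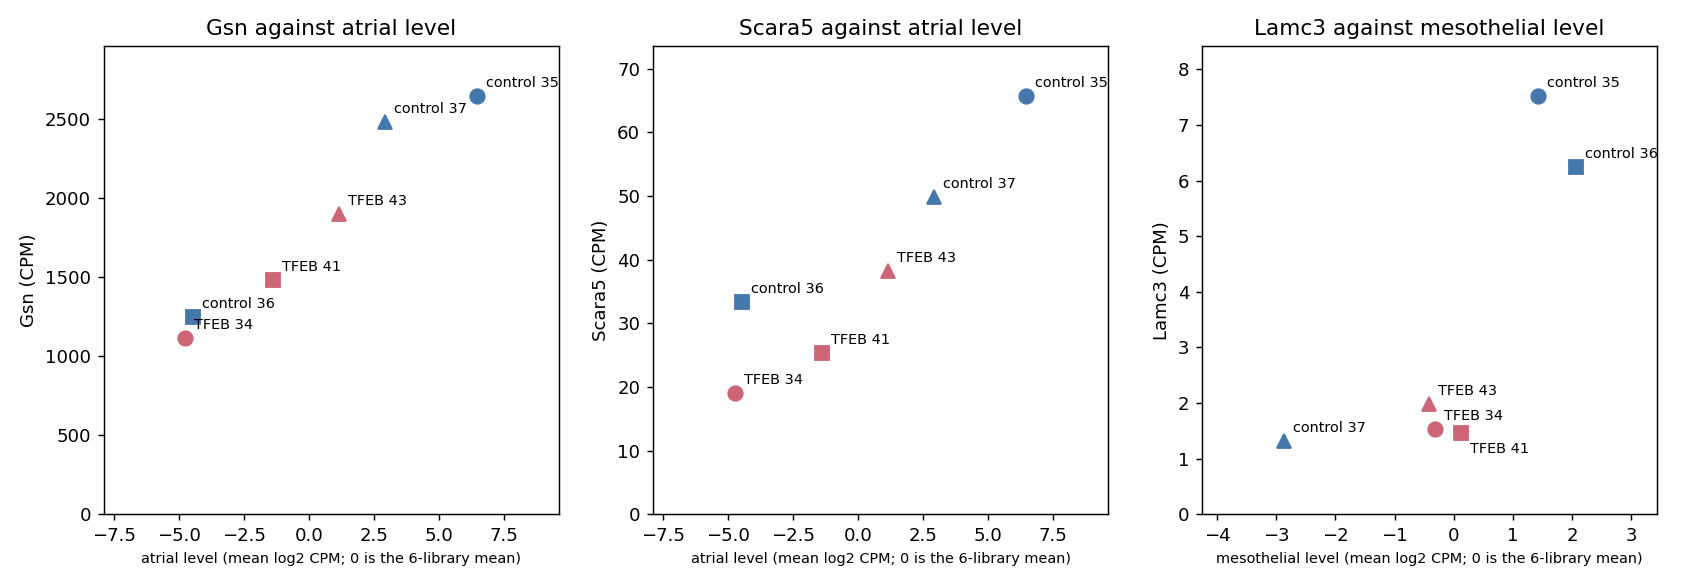
CPM of Gsn and of Scara5 against the atrial level, and CPM of Lamc3 against the mesothelial level, in the 6 libraries; a level is the mean log2 CPM of the list relative to the 6-library mean. Gsn and the atrial level have the same order of libraries, and controls 35 and 36 are high in both Lamc3 and mesothelial markers.

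Gelsolin is made in a secreted and a cytoplasmic form from separate start sites, and the table divides Gsn among 7 transcript models. This division is an estimate by the quantification, and the starts and lengths that follow are those of GENCODE for the same models. The model that starts at 35282380 and codes for 780 residues, the length of the secreted form, carried 93.5% to 99.0% of the TPM of Gsn. It stood at 1781, 862 and 1573 TPM in controls 35, 36 and 37, against 780, 999 and 1187 TPM in TFEB 34, 41 and 43, in the same order of libraries as the gene. The model that starts at 35256380 and codes for 731 residues, the length of the cytoplasmic form, stood at 32.7, 38.2 and 13.5 TPM in the controls and at 49.4, 21.0 and 11.8 TPM in the TFEB libraries. TFEB 34 was thus the lowest library for the long form and the highest for the short form, which took 5.92% of the TPM of Gsn there and 0.848% in control 37.

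The RefSeq promoter windows at or nearest to both starts are shown because the 2 models had different orders over the libraries, and that of Dpt because its window holds the E-box CAGCTG, the letters that Tcf21 and other basic helix-loop-helix factors bind. Each is the 250 bases before the start that RefSeq gives on the plus strand of GRCm38.p6, in lower case, with CAGCTG in capitals. For the shorter Gsn form the nearest start in that table is 35256359, a few bases before the GENCODE start of the model, 35256380.
Gsn, window of the 780-residue model, chr2:35282130-35282379: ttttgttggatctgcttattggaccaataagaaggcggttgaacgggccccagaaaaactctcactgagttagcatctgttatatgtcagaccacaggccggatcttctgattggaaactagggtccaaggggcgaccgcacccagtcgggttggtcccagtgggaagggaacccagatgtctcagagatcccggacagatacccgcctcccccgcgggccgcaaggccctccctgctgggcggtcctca
Gsn, window nearest the 731-residue model, chr2:35256109-35256358: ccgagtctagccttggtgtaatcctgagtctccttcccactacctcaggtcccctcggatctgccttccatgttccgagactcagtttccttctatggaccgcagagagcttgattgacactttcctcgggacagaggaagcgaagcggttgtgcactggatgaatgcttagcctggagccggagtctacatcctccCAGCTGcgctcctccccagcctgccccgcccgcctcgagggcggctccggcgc
Dpt, chr1:164796413-164796662: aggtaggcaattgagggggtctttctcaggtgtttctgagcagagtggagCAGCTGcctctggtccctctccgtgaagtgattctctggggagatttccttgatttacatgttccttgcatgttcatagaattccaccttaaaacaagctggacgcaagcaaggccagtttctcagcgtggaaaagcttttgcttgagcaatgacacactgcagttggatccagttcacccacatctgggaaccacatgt

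Promoter windows of 300 bases, 250 before and 50 after a start, matched 7 of the 10 genes and gave 9 windows. CAGCTG, which reads the same on both strands, lay in 5 of the 9 windows, from Dpt, Gsn, Dpep1 and Pi16, and in 16.3% of all 32851 windows of the table. It was found 200 bases before the start and again 6 bases after it in Dpt, and 53 bases before the Gsn start at 35256359. The windows of Tcf21, Pdgfra, Col15a1 and the 780-residue Gsn model did not hold these letters. CACGTG, the core of the element that TFEB binds and likewise a palindrome, lay in 0 of the 9 windows and in 7.15% of all windows. The motifs do not overlap each other, and a match of 6 letters is a description, not a binding site.

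The wider fibroblast lists gave the setting of the 10 genes, and 0 genes were called in any of them. Of 18 other genes of universal or adventitial fibroblasts, 15 had a lower and 3 a higher fitted value. Their median log2 fold change was -0.22 and ran from -0.32 to -0.12 with each library left out. Ly6c1, a surface antigen also of endothelium, stood at 101, 117 and 116 CPM in controls 35, 36 and 37, against 97.9, 95.4 and 77.3 CPM in TFEB 34, 41 and 43, with a log2 fold change of -0.30 (SE 0.13). It was the 1 gene of the 18 whose groups did not overlap, a share near the 4.75% of all genes. Tnxb, the matrix protein tenascin X, had a log2 fold change of -0.37 (SE 0.22) and the same order of libraries as Scara5. Dpp4, a surface peptidase that marks fibroblast progenitors, had -0.70 (SE 0.42) and the same order as Lamc3. With the mesothelial level as a covariate, added after the data were seen, Dpp4 was at -0.38. The shares of all genes with the orders of Scara5 and Lamc3 were not counted.

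Of 24 other genes of unactivated interstitial fibroblasts, 14 had a lower and 10 a higher value, with a median of -0.057 that crossed 0 with a library left out (-0.22 to 0.035). Mgst1, a microsomal glutathione transferase, stood at 54.4, 49.2 and 44.9 CPM in the controls and at 28.3, 35.95 and 40.0 CPM in TFEB 34, 41 and 43, and its groups did not overlap (log2 fold change -0.51, SE 0.15, edgeR adjusted p = 1.00). Mgst1 was 1 of 2 genes among the 24 without overlap, against 4.75% of all genes. Complement C3 had a log2 fold change of -0.76 (SE 0.35) and Vtn, vitronectin, 0.31 (SE 0.15). Vtn is also among the smooth muscle and pericyte markers. With the level of the interstitial list as a covariate, added after the data were seen, the count of lower values among the 10 identity genes was 5. The median of these 10 was then -0.042, and Pdgfra, Pi16 and Cd248 had values of 0.045, 0.14 and 0.065. Scara5 (-0.87) and Lamc3 (-1.23) had lower values in that fit too.

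Partners and relatives of the 10 showed no common direction. Of 23 fibroblast transcription factors and E-protein partners of Tcf21, 15 had a higher and 8 a lower value (median 0.034, from -0.13 to 0.10 with a library left out). Prrx1, a homeobox factor of mesenchyme, stood at 77.2, 85.9 and 86.5 CPM in the controls and 88.2, 98.3 and 96.5 CPM in TFEB 34, 41 and 43, without overlap (log2 fold change 0.18, SE 0.09, edgeR adjusted p = 1.00). Prrx1 was the 1 gene of the 23 without overlap, against 4.75% of all genes. Klf4 had -0.27 (SE 0.14) and Osr1 -0.83 (SE 0.46) on the log2 scale. Of 20 genes of the PDGF axis around Pdgfra, 13 had a lower and 7 a higher value (median -0.026, from -0.076 to 0.022 with a library left out).

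The ligand gene Pdgfb stood at 39.8, 49.4 and 57.6 CPM in the controls and at 61.3, 69.0 and 57.8 CPM in TFEB 34, 41 and 43, apart by a margin between control 37 and TFEB 43 that is small beside the spread (log2 fold change 0.36, SE 0.15). Pdgfb was the 1 gene of the 20 without overlap, against 4.75% of all genes. Pdgfrb, the other PDGF receptor, had a log2 fold change of 0.30 (SE 0.23) and Pik3r1, the regulatory subunit of PI3-kinase, -0.25 (SE 0.16). Of the 30 closest family relatives of the 10 genes, 27 were tested; 18 had a higher and 9 a lower value (median 0.063, from -0.19 to 0.16 with a library left out).

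Kit, the stem cell factor receptor and a relative of Pdgfra, was at 8.46, 12.8 and 12.5 CPM in the controls and at 28.4, 24.0 and 19.9 CPM in TFEB 34, 41 and 43. Its groups did not overlap and the ratio was 2.14 (95% interval 1.50 to 3.05), but its edgeR adjusted p was 1.00. Kit is named for the smallest p of its list, and was 1 of 2 genes among the 27 without overlap, against 4.75% of all genes. Avil, the gelsolin relative advillin, had a log2 fold change of -1.05 (SE 0.48) on 8 to 40 counts a library, and Thbd, thrombomodulin, -0.26 (SE 0.16). Lamc1 and Col18a1, the common laminin chain and the collagen nearest to Col15a1, were picked after their values were seen. Both had TFEB 34 highest and TFEB 43 lowest, Lamc1 at 593 and 360 CPM and Col18a1 at 118 and 24.9 CPM, as had Col15a1 but not Lamc3. These extremes are not particular to them: Postn, Thbs1 and Vim had them too, and TFEB 43 was lowest for 25.5% of all genes. The share of all genes with both extremes was not counted.

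As a list, activated fibroblast genes varied more between libraries than the identity genes, whose level ran from -0.41 to 0.54 on the log2 scale. This did not hold gene by gene. The ratio of highest to lowest library was 2.90 for Acta2 and 2.61 for Fap, but 4.02 for Tcf21. Postn, periostin, stood at 489, 1722 and 181 CPM in the controls and at 3366, 1255 and 87.6 CPM in TFEB 34, 41 and 43. Thbs1, thrombospondin 1, stood at 66.4, 275 and 45.7 CPM in the controls and at 517, 190 and 21.5 CPM in TFEB 34, 41 and 43. Both genes were highest in TFEB 34 and lowest in TFEB 43. Vim, which encodes the filament protein vimentin, is not confined to fibroblasts and is not in the activated list. It ran from 228 CPM in TFEB 43 to 797 CPM in TFEB 34. The level of the 34 activated genes was highest in TFEB 34 (1.80 above the 6-library mean on the log2 scale) and lowest in TFEB 43 (-2.14). A higher fitted value in the TFEB group was seen for 33 of them. The median log2 fold change was 0.67, but it was -0.23 without TFEB 34 and -0.17 with the atrial level as a covariate. With the cardiomyocyte, mesothelial and interstitial fibroblast levels as covariates it was 0.67, 1.15 and 0.79. With the level of the collagens, some of which are in this list, it was 0.05. Of 16 macrophage and monocyte markers, 12 had a higher value, and their level was 0.05, 0.29 and -0.72 in controls 35, 36 and 37, against 0.74, 0.31 and -0.66 in TFEB 34, 41 and 43. Of 15 smooth muscle and pericyte markers, which include Acta2, 13 had a higher value, with levels of -0.28, 0.0086 and -0.02 in the controls and 0.28, 0.20 and -0.19 in the TFEB libraries. Both lists were highest in TFEB 34, and their part in the values of the activated genes was not tested.

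Of the 12 fibrillar and associated collagens, all had a higher value. Col1a1, Col1a2, Col3a1, Col5a1, Col5a2 and Col12a1 are also in the activated list, so this is no separate observation for them. The median was 0.45 and became -0.16 without TFEB 34 and -0.17 with the atrial level as a covariate. With the cardiomyocyte, mesothelial and interstitial fibroblast levels as covariates it was 0.32, 0.85 and 0.68. Col5a1 (0.61, SE 0.69), Col16a1 (0.74, SE 0.95) and Col1a1 (0.69, SE 0.98) had log2 fold changes smaller than their errors. Tcf21 and Col15a1 shared the extremes of the activated list, TFEB 34 highest and TFEB 43 lowest, whereas Scara5 and Gsn were lowest in TFEB 34. The full order of the activated level was shared by 0 of the 10 genes, against 3.96% of all genes. With the level of the collagens as a covariate, Scara5 had a log2 fold change of -0.84, Tcf21 0.34 and the 10 genes a median of -0.40. Among the activated genes, Acta2, the gene from which the Cre driver is taken, stood at 106, 100 and 137 CPM in the controls and at 214, 291 and 174 CPM in TFEB 34, 41 and 43, without overlap (ratio 1.98, 95% interval 1.36 to 2.88, edgeR adjusted p = 1.00). Acta2 was the 1 gene of the 34 activated genes without overlap, against 4.75% of all genes. Chad, chondroadherin, had -1.65 (SE 0.52) and Fap, fibroblast activation protein, 0.53 (SE 0.34) on the log2 scale, and for both the groups overlapped.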

How the data were processed

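The submitters' processing notes name RSEM 1.3.1, HISAT2 2.1.0, DESeq2 1.4.5, the aligner Bowtie2 2.3.4.3 and build mm10. The role of each, the strand setting and the annotation release are not stated there or in the labels. The authors deposited 1 table of 62498 RefSeq transcripts. It gives an estimated count, not scaled for depth, per the file headers. It also gives a TPM and an FPKM for each transcript, both scaled by the authors for length and depth. The 6 normalised count columns hold no values.

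Estimated counts were summed per Entrez gene and rounded. Symbols and coordinates came from RefSeq's GRCm38.p6 gene table. The groups were compared over all 13565 genes that passed filterByExpr with edgeR 4.0.16 in R 4.3.3 (TMM, glmQLFit, glmQLFTest, two-sided), with Benjamini-Hochberg adjustment over all of them and a call at an adjusted p under 0.05. Every edgeR adjusted p printed is from this fit. Separate animals are not stated, so a p-value here reflects the spread of these 6 samples, which may be technical. The script was tested on simulated data. Library totals were at least 12942480 counts, and counting error is small for all of the 10 genes but Lamc3. Overlapping or antisense genes and close paralogues may share reads.

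Named are the 10 genes, a panel (Tfeb, Acta2, Postn, Col1a1, Thbs1, Vim, Myh6), up to 3 genes of smallest p per fibroblast list, and each member's nearest gene by profile with a mean of at least 5 CPM. The 10 genes and the lists were chosen with earlier results of these data known. Alternatives were RLE and upper-quartile scaling, DESeq2 1.42.0, voom of limma 3.58.1, other filters, log2(TPM + 1), log2(TPM + 0.1) and log2(FPKM + 1), list levels as covariates, and each library left out. Transcript starts and protein lengths came from GENCODE on the same build, and sequences from RefSeq's promoter table (GRCm38.p6); figures were drawn with matplotlib 3.10.9.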

Additional observations from a re-analysis of the deposited data

How the results depend on the processing

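None of the 10 genes was called by any of the 20 alternatives that gave it a value, 3 of them chosen after seeing the data, or by edgeR at an adjusted p under 0.1; Lamc3 was below the filter on TPM and FPKM and has no value there. Over all genes DESeq2 called 1, where edgeR called 0. Of 197 alternative values of the 10 genes, 9 changed sign. With the interstitial fibroblast level as a covariate, Pdgfra was at 0.045, Pi16 at 0.14 and Cd248 at 0.065 on the log2 scale; with the atrial level, Col15a1 was at -0.033 and Col16a1 at -0.13. The cause of these shifts was not tested. With each library left out in turn, the log2 fold change ran from -0.35 to 0.0006 for Pdgfra, from -0.045 to 0.99 for Tcf21, from -0.69 to 0.10 for Pi16 and from -0.46 to 0.013 for Cd248. It ran from -0.034 to 1.06 for Col5a1, from -0.13 to 1.63 for Col16a1 and from -0.035 to 1.22 for Col1a1. Scara5, Lamc3, Dpt, Gsn and Dpep1 had a negative and Col15a1 a positive value with any 1 library left out. No paired analysis was possible because the groups share no replicate numbers. Depth limits Lamc3, with 17 to 112 counts a library.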

Other observations

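The minor transcript models of the identity genes also differed between libraries, as estimated divisions of reads. A second Pdgfra model, with a start at 75155899 and the same 1089 residues as the main model, took 14.4% of the TPM of Pdgfra in control 35 and 0.0% in TFEB 43. Another Pdgfra model, a predicted one, was at 0.0 TPM in controls 35, 36 and 37. It was at 1.10, 1.57 and 1.15 TPM in TFEB 34, 41 and 43, and this difference was not tested. A predicted Scara5 model took 11.9% of the TPM of Scara5 in TFEB 34, 7.69% in TFEB 43 and 2.25% in control 36, and was at 0 in the other libraries. Meox1, a homeobox factor of activated cardiac fibroblasts picked after its values were seen, stood at 19.2, 68.5 and 26.1 CPM in controls 35, 36 and 37, against 89.8, 54.8 and 14.1 CPM in TFEB 34, 41 and 43, and so had the order of libraries of Col15a1. The share of all genes with that order was not counted.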
